A study of Mus musculus with 24 samples.

Results

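The 42 genes described here encode structural proteins of myelin, enzymes and a receptor of lipid and metabolite handling, and junction and adhesion proteins. Among them are also transcription factors of the oligodendrocyte lineage and further genes of mature oligodendrocytes. The 42 genes were taken as a list of mouse symbols. They were found by symbol in a table of read counts from bulk RNA sequencing of the medial prefrontal cortex. All 42 matched 1 entry each among the 56750 entries of the table, and all 42 were among the 20354 genes that passed the filter on low counts. By role they were sorted into 9 structural myelin genes, 6 genes of lipid and metabolite handling, 5 junction, node and adhesion genes, 5 transcription factors and 17 remaining members.

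There were 24 libraries in 6 groups of 4, named by their titles. GH_Con carries the treatment label control, SI_Con the label SI, GH_EE and SI_EE the label EE, and GH_WT and SI_WT the label WT. The title of the series speaks of social isolation, enriched environment and resocialization, so SI and EE are read as isolated mice and mice given an enriched environment. What GH and WT abbreviate is not given in the sources used here. GH is read as not isolated from the titles alone, and GH against SI is called housing on that reading. Every library in every group, the WT groups included, carries the genotype label 5xFAD, a transgenic mouse model of amyloid deposition whose transgenes are driven by the neuronal Thy1 promoter. Age, sex and the number of mice per library are not given either, and any p-value here reflects how far these libraries scatter, part of which may be technical. Xist, the RNA of the inactive X chromosome, was read as in females in 3 of 4 GH_Con libraries, 1 of 4 SI_EE libraries and 2 of 4 libraries in each other group.

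Oligodendrocytes wrap axons in myelin, a stack of membrane rich in cholesterol and galactolipids that is held together by a small set of abundant proteins. Sox10 and the Olig factors keep cells in the lineage, and Myrf, which is switched on as precursors mature, binds regulatory regions of many myelin genes. In the prefrontal cortex myelination continues after weaning, and social experience in that period is known to bear on it.

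The starts of the members were looked at first, because Sox10 and Myrf are members themselves. Promoter windows from RefSeq (GRCm38.p6) were found for 29 of the 42 members, in 37 windows of the 250 bases before a start. The core of Sox sites, ACAAAG, stood on either strand in 24.3% of the member windows and in 16.5% of all 32851 windows of that length. ACAATG, which differs from it in 1 letter, stood in 16.2% and 10.7%, the Myrf motif CTGGCAC in 13.5% and 4.19%, and the E-box CANNTG, bound by Olig and many other factors, in 75.7% and 66.2%. CTGGCAC was in a window of 4 of the 29 members (Mag, Cnp, Hapln2 and Nipal4). Windows of 1 gene can overlap, and 2 windows of Mag share the same site, which is thus counted with each. These are matches of letters, given without a test. Shown here are the 4 members with a window, among those described library by library, that had the smallest p for SI_Con against GH_Con. They are printed 5′ to 3′ in lower case, with matches to the first 3 of these motifs, on either strand, in capitals. For Nipal4 only the 101 bases before its start in GENCODE M21 are shown.
Plekhh1, chr12:79028913-79029162, plus strand: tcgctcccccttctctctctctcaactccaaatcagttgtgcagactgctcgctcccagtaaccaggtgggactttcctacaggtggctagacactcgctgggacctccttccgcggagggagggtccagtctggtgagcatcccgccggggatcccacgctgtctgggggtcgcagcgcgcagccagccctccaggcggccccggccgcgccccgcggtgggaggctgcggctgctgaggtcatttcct
Mag, chr7:30914923-30915172, minus strand: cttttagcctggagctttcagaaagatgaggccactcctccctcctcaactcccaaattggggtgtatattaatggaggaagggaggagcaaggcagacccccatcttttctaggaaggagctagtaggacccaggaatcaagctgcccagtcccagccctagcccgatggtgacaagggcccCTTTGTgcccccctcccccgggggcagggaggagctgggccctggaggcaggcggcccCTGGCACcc
Nipal4, chr11:46166509-46166609, minus strand: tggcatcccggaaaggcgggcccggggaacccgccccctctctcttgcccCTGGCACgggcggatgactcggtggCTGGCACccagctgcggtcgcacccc
Gjc3, chr5:137963099-137963348, minus strand: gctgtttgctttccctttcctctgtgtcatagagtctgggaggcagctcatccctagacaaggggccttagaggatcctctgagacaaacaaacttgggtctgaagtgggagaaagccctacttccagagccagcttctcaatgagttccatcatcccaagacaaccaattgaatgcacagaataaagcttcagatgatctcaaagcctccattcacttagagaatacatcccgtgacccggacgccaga
The Mag stretch held 1 match to ACAAAG, written as its reverse complement CTTTGT, and 1 to CTGGCAC near the RefSeq start. Nipal4 held 2 matches to CTGGCAC within its 101 bases. The Plekhh1 and Gjc3 stretches held none of the capitalised motifs, which says only that these letters are not in these windows.

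Every member was read in every library, from at least 91 reads for Nipal4 upward. The defining oligodendrocyte genes were thus present throughout, and together the 42 members took 0.433% to 0.674% of the reads of a library. Total counts ran from 33683587 to 51274917. Per kilobase of exon, the mean level over the 24 libraries was highest for Mobp (174 CPM per kilobase), followed by Mal (99.9), Trf (97.2), Cldn11 (96.3) and Cnp (88.6), the middle 3 of which lie close together. The lowest were Aspa (2.84), Itgb4 (1.78) and Nipal4 (1.52). Among the transcription factors Olig1 stood at 41.2 CPM per kilobase, Sox10 at 13.3, Olig2 at 9.55, Myrf at 7.44 and Nkx6-2 at 5.71.

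Several libraries stood apart from the rest in ways the groups do not explain. In GH_Con 2, SI_Con 2, SI_Con 3 and SI_WT 4 longer genes read low, with a rank correlation across genes between exon length and level of -0.36 to -0.50, beside -0.11 in the next library. SI_EE 1 held cerebellar transcripts (the 5 listed genes summed to 2975 CPM, against 109 CPM or less in the other 23 libraries), and its 5 pyramidal neuron genes summed to 1150 CPM, against 2989 CPM or more elsewhere. Thalamic genes were raised in SI_EE 1, GH_WT 2 and GH_WT 4 (428, 143 and 245 CPM, with 54.8 CPM or less elsewhere), and choroid plexus genes in SI_Con 4, SI_EE 3 and GH_WT 2 (1076, 565 and 354 CPM, with 81.2 CPM or less elsewhere). Beside the set results that use these libraries, values without them are given where they move.

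As a set, the members were highest in GH_Con and lowest in SI_Con. Levels are given as CPM, counts scaled by library size. The mean log2 CPM over the 42 members was 6.18 ± 0.15 in GH_Con (SD, n = 4; libraries 6.01, 6.22, 6.13 and 6.36) and 5.74 ± 0.14 in SI_Con (5.85, 5.82, 5.53 and 5.75). The 2 groups did not overlap. The 4 other groups lay between them, at 5.95 ± 0.23 in GH_EE (5.90, 6.18, 6.05 and 5.66), 6.00 ± 0.25 in SI_EE (5.71, 5.88, 6.18 and 6.24), 6.04 ± 0.15 in GH_WT (6.10, 6.06, 5.83 and 6.17) and 5.90 ± 0.11 in SI_WT (5.80, 5.84, 5.89 and 6.05). Each of these 4 groups overlapped both GH_Con and SI_Con, GH_WT with SI_Con through GH_WT 3 alone. In bulk tissue, fewer oligodendrocytes, less RNA of these genes per cell and a different make-up of the tissue taken cannot be told apart.

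**Figure D1:**
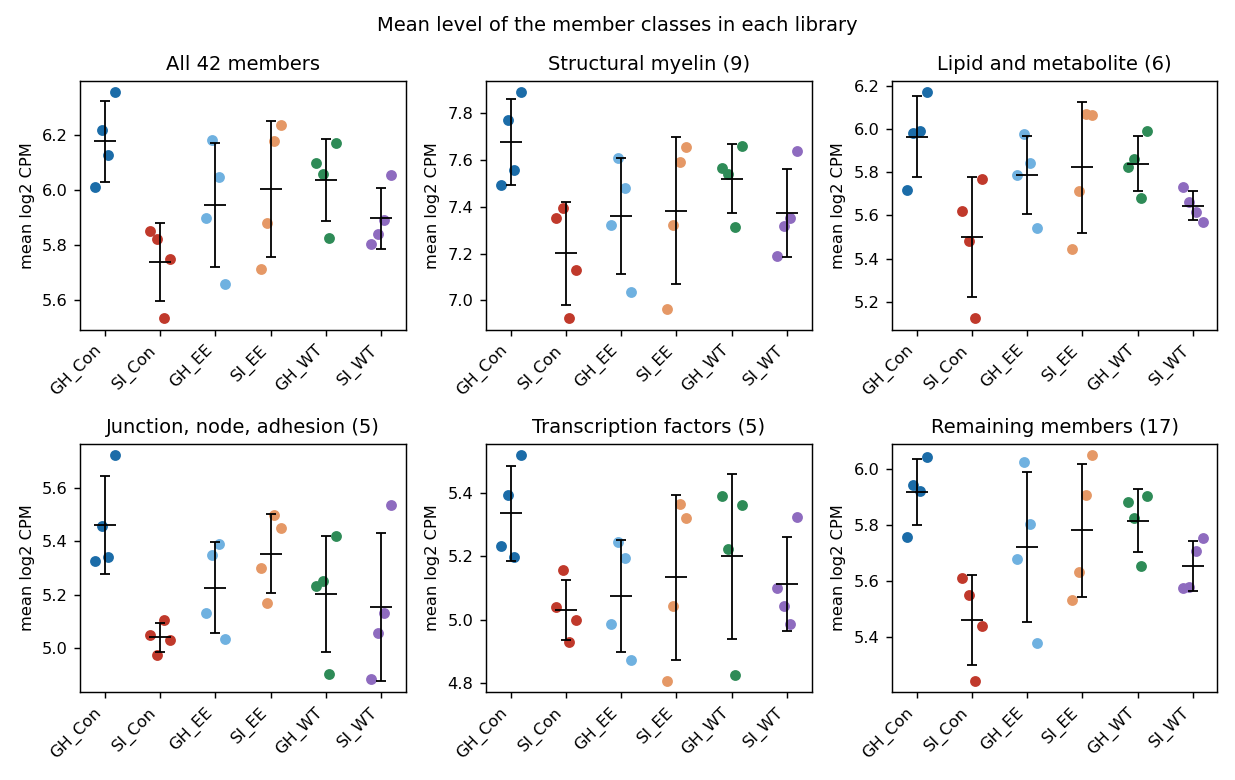
Mean log2 CPM of all 42 members and of the 5 role classes (vertical axes) in each of the 6 groups, with 1 point per library and the mean ± SD of the 4 libraries in black. For all 42 members the GH_Con libraries lie between 6.01 and 6.36 and the SI_Con libraries between 5.53 and 5.85.

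GH_Con had the highest group mean for 32 of the 42 members, against 17.3% of all genes tested, and SI_Con the lowest for 27, against 18.2% of all genes. By class, the difference in mean log2 CPM ran in the same direction throughout: structural myelin was at 7.68 ± 0.18 in GH_Con and 7.20 ± 0.22 in SI_Con, lipid handling at 5.97 ± 0.19 and 5.50 ± 0.28, junction and adhesion at 5.46 ± 0.18 and 5.04 ± 0.05, transcription factors at 5.34 ± 0.15 and 5.03 ± 0.10, and the remaining members at 5.92 ± 0.12 and 5.46 ± 0.16. The lipid class overlapped through SI_Con 4 alone, which had the highest Enpp2, as described further on. The other 4 classes did not overlap.

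The members varied together across libraries. The first principal component of their log2 levels held 48.3% of the variance, with 41 of the 42 loadings of the same sign, and 44.1% once each group's mean had been taken out. The share was 44.0% for 25 further oligodendrocyte genes and 22.6% for all genes tested. For 7 precursor genes it was 41.3% and for 7 genes of newly formed oligodendrocytes 28.9%. Lists of other cells ran from 39.7% for 7 astrocyte genes to 89.5% for 5 striatal genes. Between these were 5 interneuron genes (44.6%), 5 pyramidal neuron genes (68.2%) and 6 microglia genes (76.8%). Shares of lists of different sizes cannot be ranked, and none was tested. GH_Con 4 was the highest library for 19 members, against 3.14% of all genes. SI_Con 3 was the lowest for 19, against 6.63%, and it was also the highest library for 9.12% of all genes. Of the next counts, those of SI_EE 1 and SI_WT 4 were near the share of all genes. SI_EE 1 was lowest for 7 members and for 17% of all genes, and SI_WT 4 highest for 5 members and for 11.9%. GH_EE 4 was lowest for 5 members, against 3.73% of all genes, and GH_Con 2 highest for 4, against 2.71%.

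**Figure D2:**
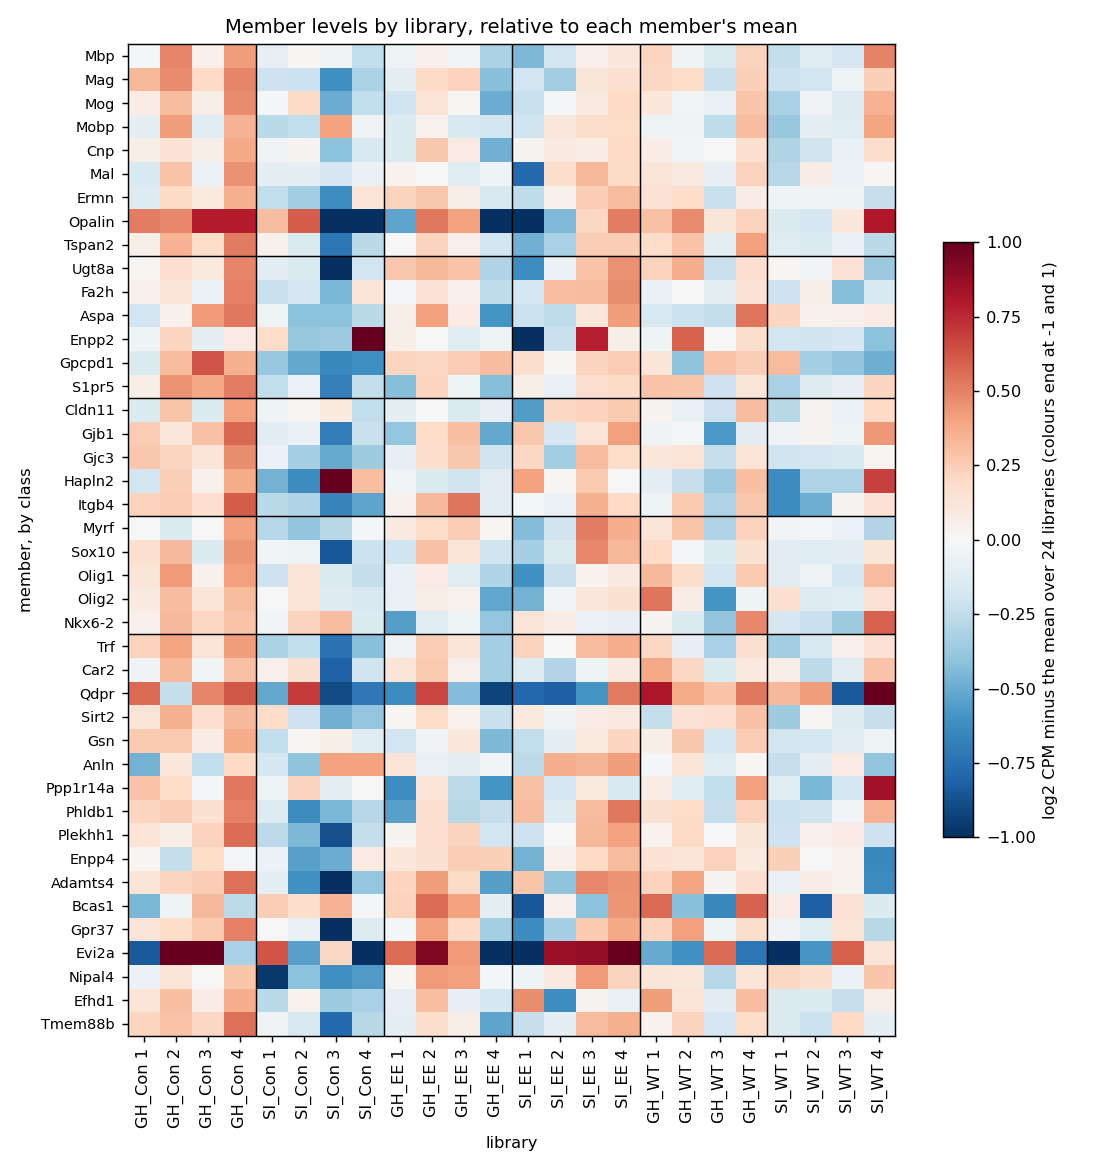
Each member's log2 CPM minus its own mean over the 24 libraries (colour, ending at -1 and 1), with members in rows by role class and libraries in columns by group. GH_Con 4 is the highest library for 19 members and SI_Con 3 the lowest for 19.

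A few members did not share this pattern. Hapln2, a link protein of nodes of Ranvier, was highest in SI_Con 3 (66.8 CPM) and SI_WT 4 (50.4 CPM), 2 of the libraries in which longer genes read low. Its loading on the first component was close to 0, as were those of Anln and Bcas1, a gene of newly myelinating oligodendrocytes. By the SD of log2 CPM over the 24 libraries, the members of widest spread were Evi2a (5.73 to 35.3 CPM), Opalin, a membrane protein of the myelin paranode (5.80 to 35.1 CPM), and Qdpr, the dihydropteridine reductase (64.9 to 259 CPM). Evi2a lies within an intron of Nf1, and the use of strand in counting is not given, so its reads may include those of its neighbour. Without Qdpr, Opalin, Evi2a and Enpp2 the difference in mean log2 CPM between SI_Con and GH_Con was -0.43, beside -0.44 with them.

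The comparison of SI_Con with GH_Con asks what social isolation without further treatment did. No member passed the adjusted threshold of 0.05 in edgeR's quasi-likelihood test, and neither did any other gene (0% of 20354). At an unadjusted p under 0.05, 26 of the 42 members were lower in SI_Con and 0 higher, while 3.57% of all genes were lower at that p. In 18 members every SI_Con library lay below every GH_Con library, as in 2.61% of all genes. The median log2 fold change of the members was -0.44, beside 0.00 for all genes tested, and 38 of 42 were negative, beside 49.9% of all genes. DESeq2 called 7 members lower (Mag, Gpcpd1, Gjc3, Itgb4, Trf, Plekhh1 and Nipal4), out of 33 genes called in all (0.163%), and limma-voom called 0 members (0% of genes). Without the 4 libraries in which longer genes read low, 17 members had an unadjusted p under 0.05, the median was -0.35 and the difference in mean log2 CPM -0.36. Without GH_Con 4 the count at that p was 15 and without SI_Con 3 it was 17, the 2 libraries whose removal moved it by over 1.5 times.

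**Figure D3:**
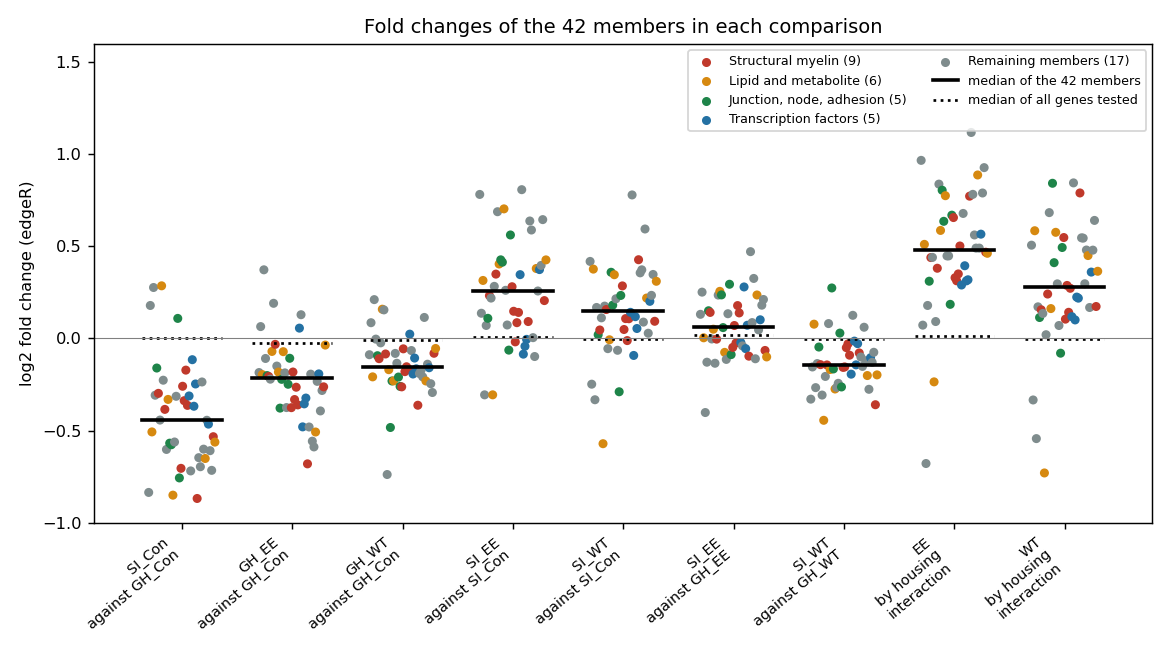
Log2 fold changes of the 42 members (points, coloured by role class) in each of the 9 comparisons, with the median of the members as a solid line and that of all 20354 genes as a dotted line. The members' median is -0.44 for SI_Con against GH_Con, 0.26 for SI_EE against SI_Con and 0.48 for the EE by housing interaction, and the comparisons share groups with one another.

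All 9 structural myelin genes had a negative log2 fold change in SI_Con against GH_Con, from -0.87 for Opalin to -0.17 for Mobp, with a median of -0.36. In 6 of the 9 the unadjusted p was under 0.05, against 3.57% of all genes lower at that p. In 3 (Mag, Cnp and Tspan2) the groups did not overlap, against 2.61% of all genes. For Cnp the margin was narrow, 325 CPM at most in SI_Con and 332 CPM at least in GH_Con. Mag (ENSMUSG00000036634; chromosome 7, 30899176 to 30914873, minus strand) encodes an adhesion protein of the myelin membrane that faces the axon. Its levels were 187, 206, 170.3 and 208 CPM in GH_Con 1 to 4 and 129, 128, 97.0 and 119 CPM in SI_Con 1 to 4. All 4 SI_Con libraries lay below all GH_Con libraries, and SI_Con 3 was the lowest of all 24. The GH_EE libraries read 139.7, 169.8, 174 and 111 CPM, those of SI_EE 129.8, 116, 162 and 167, those of GH_WT 171, 169, 127 and 176 and those of SI_WT 128, 129.9, 143 and 176. Each of these groups had at least 1 library within the SI_Con range, and none had one above the second lowest GH_Con library. The log2 fold change of Mag was -0.71 (SE 0.15; unadjusted p = 0.000145, adjusted p = 0.390), a fold of 0.613.

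Mobp (ENSMUSG00000032517; chromosome 9, 120149707 to 120181484, plus strand) encodes a basic protein of compact myelin and gave the most reads of the class. Mobp read 1106, 1572, 1077 and 1491 CPM in GH_Con 1 to 4 and 975, 990.0, 1548 and 1143 CPM in SI_Con 1 to 4. GH_Con 2, SI_Con 3 and SI_WT 4, all 3 among the libraries in which longer genes read low, held its 3 highest values, and the groups overlapped. Mobp stood at 1070.0, 1205, 1058 and 1033 CPM in GH_EE 1 to 4, 1022, 1268, 1323 and 1329.7 in SI_EE, 1133, 1143, 983 and 1457 in GH_WT and 901, 1099, 1078 and 1541 in SI_WT. For Mobp the log2 fold change, SI_Con against GH_Con, was -0.17 (SE 0.18; unadjusted p = 0.337, adjusted p = 0.930). Without GH_Con 2 it was -0.07 and without SI_Con 3 it was -0.33.

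Mbp (ENSMUSG00000041607; chromosome 18, 82475146 to 82585637, plus strand) encodes myelin basic protein, which fuses the cytoplasmic faces of the membrane. Mbp read 573, 811, 600.0 and 772 CPM in GH_Con 1 to 4 and 547, 582, 564 and 488 CPM in SI_Con 1 to 4. Only SI_Con 2 reached into the GH_Con range. Levels of Mbp elsewhere were 559.8, 599, 566 and 465 CPM in GH_EE, 424, 508, 598 and 623 in SI_EE, 670.1, 565, 525 and 673 in GH_WT and 489.6, 532, 515 and 814 in SI_WT. SI_WT 4 was the highest of all libraries and SI_EE 1 the lowest. For Mbp the log2 fold change was -0.34 (SE 0.16; unadjusted p = 0.0469, adjusted p = 0.761).

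Tspan2 (ENSMUSG00000027858; chromosome 3, 102734529 to 102801513, plus strand) encodes a tetraspanin of oligodendrocytes. Tspan2 read 137, 168, 149.5 and 189 CPM in GH_Con 1 to 4 and 136, 119.7, 79.8 and 109 CPM in SI_Con 1 to 4. The groups stood apart, with SI_Con 1 within 2 CPM of the lowest GH_Con library. In the other groups Tspan2 read 132, 153, 136 and 115 CPM in GH_EE, 94.1, 105, 157 and 156 in SI_EE, 149, 160.5, 124 and 175 in GH_WT and 121, 119, 125 and 109 in SI_WT, each from library 1 to 4. Its log2 fold change was -0.53 (SE 0.17; unadjusted p = 0.00461, adjusted p = 0.547) in SI_Con against GH_Con and -0.36 (SE 0.17; unadjusted p = 0.0444, adjusted p = 0.913) in SI_WT against GH_WT. The other structural genes were Cnp, the phosphodiesterase of non-compact myelin, at -0.30, Mog at -0.36, Mal at -0.26 and Ermn at -0.39, with adjusted p from 0.617 to 0.849.

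Of the 6 lipid and metabolite genes, 5 had a lower mean in SI_Con, each with an unadjusted p under 0.05, and Enpp2 a higher one. Among all genes, 3.57% were lower at that p. The median log2 fold change was -0.54. Gpcpd1 (ENSMUSG00000027346; chromosome 2, 132529082 to 132587729, minus strand) encodes a phosphodiesterase that releases choline from glycerophosphocholine. Gpcpd1 read 102, 139.9, 174 and 144 CPM in GH_Con 1 to 4 and 86.1, 78.6, 71.6 and 73.4 CPM in SI_Con 1 to 4. It had the smallest p of all members here. The GH_EE libraries read 129.8, 129.8, 133 and 139 CPM, those of SI_EE 126, 113, 131 and 134, those of GH_WT 122, 84.7, 137 and 133 and those of SI_WT 139, 88.9, 85.5 and 79.9. Its levels lay in a lower set of 8 libraries, the 4 of SI_Con, SI_WT 2 to 4 and GH_WT 2, at 71.6 to 88.9 CPM, and 16 libraries at 102 CPM or more. Gpcpd1 had a log2 fold change of -0.85 (SE 0.17; unadjusted p = 5.08e-05, adjusted p = 0.345) in SI_Con against GH_Con and 0.70 (SE 0.17; unadjusted p = 0.000408, adjusted p = 0.164) in SI_EE against SI_Con, 2 comparisons that share SI_Con.

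S1pr5 (ENSMUSG00000045087; chromosome 9, 21242912 to 21248443, minus strand) encodes a receptor for sphingosine 1-phosphate. S1pr5 read 18.2, 23.7, 22.7 and 24.8 CPM in GH_Con 1 to 4 and 14.6, 16.7, 10.8 and 14.8 CPM in SI_Con 1 to 4. No SI_Con library reached the GH_Con range. S1pr5 stood at 12.9, 20.2, 16.9 and 12.9 CPM in GH_EE 1 to 4, 18.1, 16.5, 19.6 and 19.9 in SI_EE, 21.2, 21.0, 15.1 and 18.9 in GH_WT and 13.9, 15.9, 16.4 and 20.2 in SI_WT. GH_EE 1 and GH_EE 4 were as low as SI_Con. S1pr5 had a log2 fold change of -0.65 (SE 0.16; unadjusted p = 0.000613, adjusted p = 0.426) in SI_Con and -0.51 (SE 0.16; unadjusted p = 0.00497, adjusted p = 0.552) in GH_EE, both against GH_Con.

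Fa2h (ENSMUSG00000033579; chromosome 8, 111345135 to 111393824, minus strand) encodes the fatty acid hydroxylase that makes the hydroxylated galactolipids of myelin. Fa2h read 47.4, 50.1, 44.0 and 65.2 CPM in GH_Con 1 to 4 and 39.4, 40.8, 33.5 and 50.6 CPM in SI_Con 1 to 4. SI_Con 4 lay inside the GH_Con range and the other 3 SI_Con libraries below it. Levels of Fa2h elsewhere were 45.3, 50.6, 47.5 and 38.5 CPM in GH_EE, 40.6, 56.7, 56.8 and 63.3 in SI_EE, 43.9, 46.1, 43.0 and 50.6 in GH_WT and 39.8, 48.1, 34.2 and 41.3 in SI_WT. In SI_EE, library 1 was at the SI_Con level and the other 3 above all GH_EE libraries. For Fa2h the log2 fold change was -0.33 (SE 0.15; unadjusted p = 0.0365, adjusted p = 0.724) in SI_Con against GH_Con and 0.26 (SE 0.15; unadjusted p = 0.0987, adjusted p = 0.644) in SI_EE against GH_EE. Ugt8a, the enzyme that makes galactocerebroside, had -0.56 and Aspa, which cleaves N-acetylaspartate, -0.51 in SI_Con against GH_Con, both with adjusted p = 0.660.

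Enpp2 (ENSMUSG00000022425; chromosome 15, 54838901 to 54952892, minus strand) encodes autotaxin, which is also made in the choroid plexus. Enpp2 read 234, 281, 227 and 255 CPM in GH_Con 1 to 4 and 274, 186, 188 and 569 CPM in SI_Con 1 to 4. SI_Con 4 stood far above every other library, SI_Con 1 lay within the GH_Con range and SI_Con 2 and 3 below it. In the other groups Enpp2 read 251, 243, 223 and 234 CPM in GH_EE, 112, 207, 413 and 251 in SI_EE, 235, 364, 242 and 273 in GH_WT and 212, 210.4, 214 and 182 in SI_WT, each from library 1 to 4. The 3 highest libraries, SI_Con 4, SI_EE 3 and GH_WT 2, were the 3 with the highest choroid plexus genes, and the part of that tissue in the Enpp2 values was not tested. The log2 fold change of Enpp2 was 0.29 (SE 0.31; unadjusted p = 0.367, adjusted p = 0.938), and -0.20 without SI_Con 4.

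Junction, node and adhesion genes gave a median log2 fold change of -0.57 in SI_Con against GH_Con, with 4 of 5 negative. At an unadjusted p under 0.05, 3 of 5 were lower, and the same 3 (Gjb1, Gjc3 and Itgb4) were without overlap. The shares among all genes were 3.57% and 2.61%. Gjc3 (ENSMUSG00000056966; chromosome 5, 137953461 to 137963098, minus strand) encodes a connexin of oligodendrocytes. Gjc3 read 84.1, 80.9, 76.5 and 96.4 CPM in GH_Con 1 to 4 and 67.2, 55.4, 49.2 and 54.6 CPM in SI_Con 1 to 4. All SI_Con values were below all GH_Con values. The GH_EE libraries read 65.9, 79.0, 84.1 and 60.7 CPM, those of SI_EE 80.6, 54.8, 87.2 and 79.2, those of GH_WT 75.3, 76.2, 59.6 and 76.7 and those of SI_WT 60.8, 62.3, 62.7 and 70.8. SI_EE 2 was at the SI_Con level while the other 3 SI_EE libraries were in the GH_Con range. Gjc3 had a log2 fold change of -0.58 (SE 0.14; unadjusted p = 0.000354, adjusted p = 0.426).

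Gjb1 (ENSMUSG00000047797; chromosome X, 101376378 to 101385629, plus strand) encodes connexin 32, a gap junction protein of myelin. Gjb1 read 19.1, 17.3, 19.7 and 23.9 CPM in GH_Con 1 to 4 and 14.9, 15.3, 9.93 and 13.8 CPM in SI_Con 1 to 4. Gjb1 stood at 12.3, 18.2, 19.8 and 11.3 CPM in GH_EE 1 to 4, 19.4, 14.3, 17.5 and 21.3 in SI_EE, 15.7, 15.8, 10.8 and 14.9 in GH_WT and 15.6, 16.4, 15.5 and 21.7 in SI_WT. Every GH_WT library and every SI_Con library lay below every GH_Con library, and the SI_WT libraries lay above every SI_Con library. Gjb1 had a log2 fold change of -0.57 (SE 0.19; unadjusted p = 0.00669, adjusted p = 0.553) in SI_Con and -0.48 (SE 0.19; unadjusted p = 0.0183, adjusted p = 1.0) in GH_WT, both against GH_Con. Its WT by housing interaction, the difference between the WT effect in SI and in GH, was 0.84 (SE 0.27; unadjusted p = 0.00473, adjusted p = 1.0).

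Cldn11 (ENSMUSG00000037625; chromosome 3, 31149920 to 31164324, plus strand) encodes the claudin of the tight junctions between myelin layers. Cldn11 read 162, 216, 162 and 235 CPM in GH_Con 1 to 4 and 172, 180.0, 191 and 151 CPM in SI_Con 1 to 4. The groups overlapped. Levels of Cldn11 elsewhere were 167, 178, 161 and 168 CPM in GH_EE, 121, 205, 209 and 214 in SI_EE, 182, 170.4, 154 and 221 in GH_WT and 147, 181, 171 and 204 in SI_WT. SI_EE 1 was the lowest library of all, and the other 3 SI_EE libraries were close together and high. Cldn11 had a log2 fold change of -0.16 (SE 0.16; unadjusted p = 0.332, adjusted p = 0.928). Itgb4, a laminin receptor subunit, had -0.76 (adjusted p = 0.426) and Hapln2 0.11 (adjusted p = 0.982).

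The 5 transcription factors all had a negative log2 fold change in SI_Con against GH_Con, with a median of -0.31, and none was without overlap. Sox10 and Olig1 had an unadjusted p under 0.05, against 3.57% of all genes lower at that p. Olig1 (ENSMUSG00000046160; chromosome 16, 91269772 to 91271933, plus strand) encodes a helix-loop-helix factor of the whole lineage. Olig1 read 95.6, 118, 90.4 and 116 CPM in GH_Con 1 to 4 and 76.0, 96.0, 79.4 and 74.5 CPM in SI_Con 1 to 4. SI_Con 2 was inside the GH_Con range and the other 3 below it. In the other groups Olig1 read 83.9, 92.7, 80.9 and 71.4 CPM in GH_EE, 57.8, 75.3, 90.1 and 93.4 in SI_EE, 109.8, 99.0, 76.9 and 105 in GH_WT and 81.6, 85.7, 77.7 and 109 in SI_WT, each from library 1 to 4. Olig1 had a log2 fold change of -0.37 (SE 0.15; unadjusted p = 0.0230, adjusted p = 0.660). For Sox10 it was -0.47, for Olig2 -0.25 and for Nkx6-2 -0.12.

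Myrf (ENSMUSG00000036098; chromosome 19, 10208272 to 10240748, minus strand) encodes the membrane-bound factor that drives myelin genes in maturing cells. Myrf read 62.5, 56.7, 62.5 and 83.0 CPM in GH_Con 1 to 4 and 51.6, 47.7, 51.6 and 62.2 CPM in SI_Con 1 to 4. SI_Con 4 lay within the GH_Con range and the other 3 below it. The GH_EE libraries read 66.6, 71.1, 74.2 and 63.2 CPM, those of SI_EE 46.4, 54.5, 89.4 and 80.8, those of GH_WT 68.5, 75.8, 51 and 73.6 and those of SI_WT 61.5, 62.0, 60.3 and 51.3. SI_EE split into 2 low libraries (1 and 2) and 2 high ones (3 and 4). Myrf had a log2 fold change of -0.31 (SE 0.17; unadjusted p = 0.0804, adjusted p = 0.806).

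Among the 17 remaining members, 15 had a negative log2 fold change in SI_Con against GH_Con. Of these, 10 had an unadjusted p under 0.05, against 3.57% of all genes lower at that p. In 9 the groups did not overlap, against 2.61%. The median was -0.56. Trf (ENSMUSG00000032554; chromosome 9, 103204001 to 103230444, minus strand) encodes transferrin, the iron carrier that oligodendrocytes make in the brain. Trf read 371, 417, 347 and 423 CPM in GH_Con 1 to 4 and 254, 267, 189.7 and 237 CPM in SI_Con 1 to 4. Its SI_Con libraries were the lower set without overlap. Trf stood at 308, 376, 345 and 251 CPM in GH_EE 1 to 4, 369, 316, 391 and 407 in SI_EE, 366, 299, 253 and 354 in GH_WT and 249, 283, 325 and 349 in SI_WT. All 4 SI_EE libraries lay above all 4 SI_Con libraries. The log2 fold change of Trf was -0.72 (SE 0.15; unadjusted p = 6.93e-05, adjusted p = 0.353) in SI_Con against GH_Con and 0.65 (SE 0.15; unadjusted p = 0.000221, adjusted p = 0.161) in SI_EE against SI_Con. A predicted gene overlaps Trf on the same strand, so its reads may be shared.

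Car2 (ENSMUSG00000027562; chromosome 3, 14886273 to 14900770, plus strand) encodes carbonic anhydrase of oligodendrocytes. Car2 read 158, 204, 159 and 199 CPM in GH_Con 1 to 4 and 168, 180.1, 92.4 and 141 CPM in SI_Con 1 to 4. SI_Con 3 was the lowest of all libraries, and the groups overlapped. Levels of Car2 elsewhere were 177, 195, 168 and 128 CPM in GH_EE, 148, 133, 157 and 173 in SI_EE, 211, 187, 147 and 173 in GH_WT and 170.2, 135, 150.3 and 198 in SI_WT. Car2 had a log2 fold change of -0.31 (SE 0.18; unadjusted p = 0.0954, adjusted p = 0.817), and -0.14 without SI_Con 3.

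Plekhh1 (ENSMUSG00000060716; chromosome 12, 79029163 to 79081655, plus strand) encodes a protein with pleckstrin homology domains. Plekhh1 read 57, 54.2, 60.8 and 76.1 CPM in GH_Con 1 to 4 and 43.2, 38.0, 28.1 and 43.9 CPM in SI_Con 1 to 4. SI_Con lay wholly below GH_Con. In the other groups Plekhh1 read 52.7, 58.2, 60.3 and 45.7 CPM in GH_EE, 44.9, 52.0, 65.1 and 68.2 in SI_EE, 53.0, 59.6, 51.5 and 56.2 in GH_WT and 44.7, 53.7, 54.9 and 44.9 in SI_WT, each from library 1 to 4. All SI_EE and all SI_WT libraries lay above the highest SI_Con library, SI_EE 1 and SI_WT 1 and 4 only narrowly. Plekhh1 had a log2 fold change of -0.70 (SE 0.15; unadjusted p = 0.000117, adjusted p = 0.390) in SI_Con against GH_Con, 0.59 (SE 0.15; unadjusted p = 0.000669, adjusted p = 0.167) in SI_EE against SI_Con and 0.37 (SE 0.15; unadjusted p = 0.0199, adjusted p = 1.0) in SI_WT against SI_Con.

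Nipal4 (ENSMUSG00000020411; chromosome 11, 46148155 to 46166508, minus strand) belongs to the magnesium transporter family of NIPA proteins and had the fewest reads of all members. Nipal4 read 4.92, 5.61, 5.12 and 6.20 CPM in GH_Con 1 to 4 and 2.62, 3.86, 3.35 and 3.45 CPM in SI_Con 1 to 4. All 4 SI_Con libraries were lower than the other 20 libraries. The GH_EE libraries read 5.15, 6.88, 6.81 and 5.07 CPM, those of SI_EE 4.97, 5.45, 6.88 and 5.96, those of GH_WT 5.56, 5.55, 4.20 and 5.58 and those of SI_WT 5.89, 5.78, 4.92 and 6.19. GH_WT 3 was the lowest outside SI_Con. The log2 fold change of Nipal4 was -0.72 (SE 0.16; unadjusted p = 0.000172, adjusted p = 0.390) in SI_Con against GH_Con, 0.81 (SE 0.16; unadjusted p = 4.49e-05, adjusted p = 0.159) in SI_EE against SI_Con and 0.78 (SE 0.16; unadjusted p = 6.86e-05, adjusted p = 0.595) in SI_WT against SI_Con. These comparisons share the SI_Con libraries.

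Phldb1 (ENSMUSG00000048537; chromosome 9, 44686304 to 44735198, minus strand) encodes another protein with a pleckstrin homology domain. Phldb1 read 98.2, 100.3, 94.3 and 120.2 CPM in GH_Con 1 to 4 and 77.5, 54.9, 61.7 and 69.6 CPM in SI_Con 1 to 4. The groups did not overlap. Phldb1 stood at 58.3, 95.4, 69.8 and 72.4 CPM in GH_EE 1 to 4, 105, 77.6, 106 and 122 in SI_EE, 94.2, 96.5, 72.1 and 99.2 in GH_WT and 73.1, 73.7, 83.0 and 108 in SI_WT. GH_EE 1, 3 and 4 were at SI_Con levels, while the SI_EE libraries all lay above SI_Con, library 2 only just. The log2 fold change of Phldb1 was -0.65 (SE 0.16; unadjusted p = 0.000699, adjusted p = 0.426) in SI_Con against GH_Con, -0.48 (SE 0.16; unadjusted p = 0.00768, adjusted p = 0.575) in GH_EE against GH_Con and 0.47 (SE 0.16; unadjusted p = 0.00873, adjusted p = 0.446) in SI_EE against GH_EE.

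Gsn (ENSMUSG00000026879; chromosome 2, 35256380 to 35307892, plus strand) encodes gelsolin, which severs actin filaments. Gsn read 73.1, 73.0, 64.1 and 78.8 CPM in GH_Con 1 to 4 and 51.4, 61.7, 63.4 and 55.9 CPM in SI_Con 1 to 4. SI_Con 3 came within 1 CPM of the lowest GH_Con library without reaching it. Levels of Gsn elsewhere were 53.4, 59.5, 65.5 and 44.5 CPM in GH_EE, 51.4, 57.3, 65.2 and 70.6 in SI_EE, 63.4, 73.4, 53.9 and 72.6 in GH_WT and 53.5, 54.0, 56.2 and 58.7 in SI_WT. Only GH_EE 3 reached the GH_Con range among the GH_EE libraries. For Gsn the log2 fold change was -0.31 (SE 0.12; unadjusted p = 0.0180, adjusted p = 0.618) in SI_Con and -0.38 (SE 0.12; unadjusted p = 0.00586, adjusted p = 0.552) in GH_EE, both against GH_Con, and -0.24 (SE 0.12; unadjusted p = 0.0600, adjusted p = 0.913) in SI_WT against GH_WT.

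Sirt2 (ENSMUSG00000015149; chromosome 7, 28766735 to 28788661, plus strand) encodes a tubulin deacetylase that is abundant in myelin. Sirt2 read 92.3, 108, 94.3 and 105 CPM in GH_Con 1 to 4 and 95.7, 73.2, 60.3 and 64.5 CPM in SI_Con 1 to 4. SI_Con 1 lay inside the GH_Con range and the other 3 below it. In the other groups Sirt2 read 85.4, 95.7, 86.5 and 72.3 CPM in GH_EE, 90.1, 82.4, 88.9 and 89.8 in SI_EE, 71.4, 93.2, 94.6 and 103 in GH_WT and 65.7, 84.8, 77.0 and 72.0 in SI_WT, each from library 1 to 4. Sirt2 had a log2 fold change of -0.44 (SE 0.13; unadjusted p = 0.00272, adjusted p = 0.525) in SI_Con against GH_Con and -0.28 (SE 0.13; unadjusted p = 0.0472, adjusted p = 0.913) in SI_WT against GH_WT. The remaining members ran from -0.84 for Adamts4, a protease of the extracellular matrix, to 0.28 for Bcas1. Adamts4, Tmem88b (-0.61), Gpr37 (-0.56), which encodes a receptor of oligodendrocytes, and Efhd1 (-0.44) were also without overlap between SI_Con and GH_Con.

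**Figure D4:**
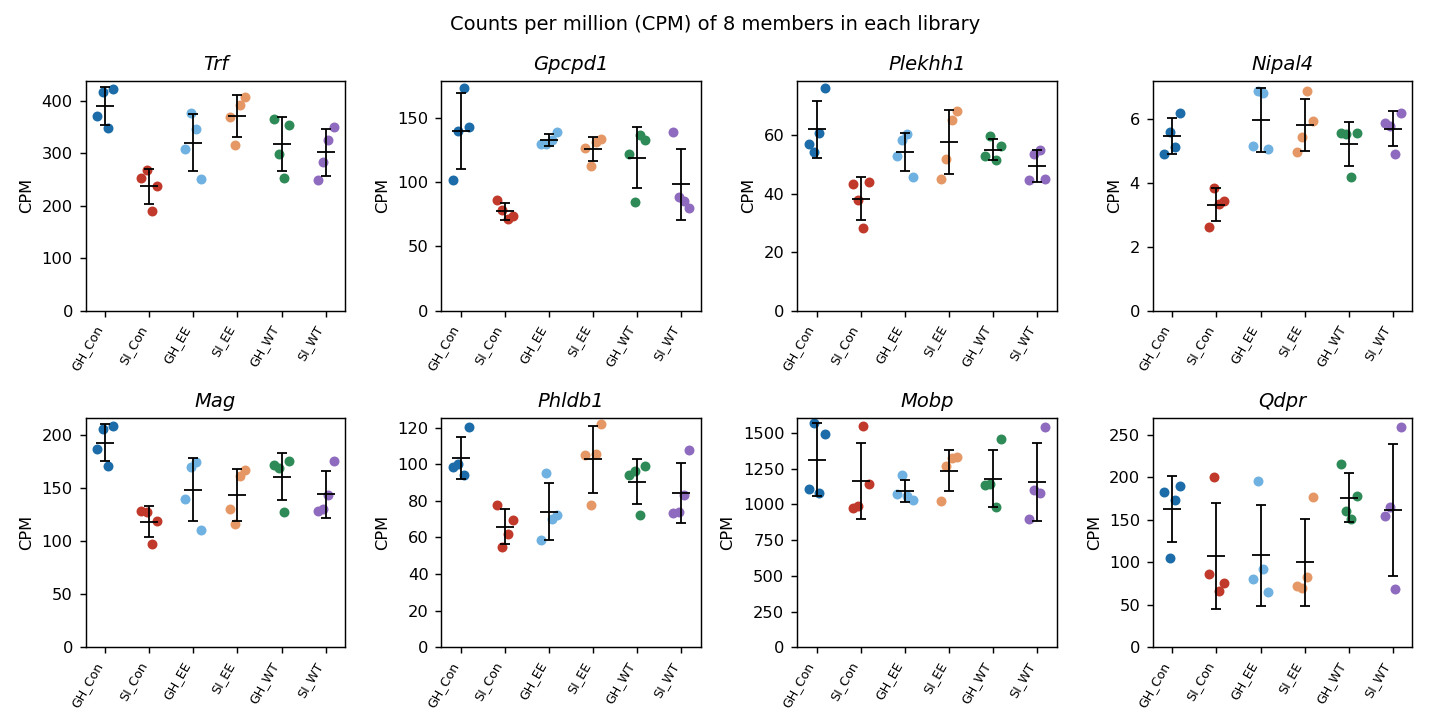
Levels in CPM of 8 members (vertical axes, from 0) in each library, with 1 point per library and the mean ± SD of the 4 libraries of a group in black. Nipal4 lies at 2.62 to 3.86 CPM in SI_Con and at 4.20 CPM or more in the other 20 libraries, Mobp overlaps between all groups, and Qdpr splits within groups.

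In SI_EE against SI_Con, which asks what the enriched environment did in isolated mice, 34 of the 42 members were positive, with a median log2 fold change of 0.26 beside 0.01 for all genes. No member passed the adjusted threshold in edgeR (0% of all genes did), and the smallest adjusted p of a member was 0.159, for Nipal4. In 7 members (Cnp, Gpcpd1, Itgb4, Trf, Phldb1, Plekhh1 and Nipal4) the groups did not overlap, against 2.24% of all genes. Cnp was apart only narrowly, at 325.9 CPM or more in SI_EE and 325.1 CPM or less in SI_Con. At an unadjusted p under 0.05, 13 members were higher, against 7.03% of all genes. By class, 3 of 6 lipid genes, 3 of 5 junction genes, 6 of 17 remaining members and 1 of 9 structural genes were higher at that p, and 0 of 5 transcription factors. The structural median was 0.15, with Mbp at -0.02, Mobp at 0.09 and Mal at 0.15. DESeq2 called 5 members (Gpcpd1, Trf, Phldb1, Plekhh1 and Nipal4) of 174 genes in all (0.912%), and limma-voom 0 (0%). Mean log2 CPM differed by 0.26, and by 0.37 without SI_EE 1, the library with cerebellar transcripts, when 18 members had p under 0.05. Without SI_Con 3 that count was 8, without SI_EE 4 it was also 8, and without the libraries in which longer genes read low it was 7, with a difference of 0.20. Leaving out SI_EE 2 brought 3 members (Trf, Phldb1 and Nipal4) past edgeR's adjusted threshold.

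In SI_WT against SI_Con 33 members were positive, with a median of 0.15 beside 0.00 for all genes. edgeR called 0 members (0% of all genes), DESeq2 called Nipal4, 1 of 2 genes in all (0.00987%), and limma-voom 0 (0%). At an unadjusted p under 0.05, 4 members (Trf, Phldb1, Plekhh1 and Nipal4) were higher, against 1.40% of all genes, and in 4 (Aspa, Gjb1, Plekhh1 and Nipal4) the groups did not overlap, against 0.796%. The difference in mean log2 CPM was 0.16, 0.09 without SI_Con 3, 0.10 without SI_WT 4 and 0.04 without the libraries in which longer genes read low, when 17 of 42 members were negative. That count at p under 0.05 was 2 without SI_Con 3, 8 without SI_Con 1 and 6 without SI_Con 2.

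In GH_EE against GH_Con, the enriched environment in the groups read as not isolated, 37 of the 42 members were negative. The median was -0.21 beside -0.02 for all genes. edgeR called 0 members and 1 other gene (0.00491%), DESeq2 0 members and 26 genes (0.134%), and limma-voom 0 (0%). Those lower at an unadjusted p under 0.05 were 9 members, against 3.70% of all genes: S1pr5, Gsn, Phldb1, Mag, Mog, Nkx6-2, Olig1, Ppp1r14a and Tmem88b. Groups did not overlap in 3 (Olig2, Nkx6-2 and Tmem88b), against 4.06% of all genes, so this share is near the background. The difference in mean log2 CPM was -0.23, and -0.12 without GH_EE 4, the lowest library of that group, when the count at p under 0.05 was 3. Without GH_Con 4 that count was 4, without GH_EE 1 it was 5 and without GH_EE 2 it was 14.

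In GH_WT against GH_Con 36 members were negative, with a median of -0.16 beside -0.01 for all genes. edgeR called 0 members (0% of genes), DESeq2 0 members and 10 genes (0.0494%), and limma-voom 0 (0%). Gjb1 alone was lower at an unadjusted p under 0.05, against 1.64% of all genes, and Gjb1 and Opalin did not overlap between the groups, against 2.02%. The difference in mean log2 CPM was -0.14, -0.07 without GH_WT 3, -0.08 without GH_Con 4 and -0.22 without GH_WT 2 and GH_WT 4, the libraries with raised thalamic genes. At an unadjusted p under 0.05 there were 0 members without GH_Con 4 or without GH_WT 3, 2 without GH_Con 1 or GH_Con 3, and 3 without GH_WT 1 or GH_WT 4.

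Between the housings within EE, SI_EE against GH_EE, members went both ways, 17 negative and 25 positive, with a median of 0.06 beside 0.02. edgeR called 0 members and 1 gene (0.00491%), DESeq2 0 members and 22 genes (0.109%), and limma-voom 0 (0%). Phldb1 alone was higher at an unadjusted p under 0.05, against 6.36% of all genes, and Hapln2 alone did not overlap, against 2.35%. The difference in mean log2 CPM was 0.06, 0.15 without SI_EE 1, -0.05 without GH_EE 4, -0.01 without SI_EE 3 and -0.02 without SI_EE 4, so its sign rested on single libraries. Without SI_EE 1 the count at p under 0.05 was 5, without GH_EE 2 it was 3 and without SI_EE 4 it was 2.

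Within the WT arm, SI_WT against GH_WT, 36 members were negative, with a median of -0.14 beside 0.00. edgeR called 0 members (0% of genes), DESeq2 0 members and 12 genes (0.0592%), and limma-voom 0 (0%). Tspan2 and Sirt2 were lower at an unadjusted p under 0.05, against 3.61% of all genes, and Enpp2 did not overlap, against 2.24%. The difference in mean log2 CPM was -0.14, and -0.06 without GH_WT 2 and GH_WT 4, when 0 members had p under 0.05. It was -0.09 without GH_WT 4 alone. That count was also 0 without SI_WT 3, SI_WT 4 or GH_WT 4, 1 without any 1 of GH_WT 1, GH_WT 2, SI_WT 1 and SI_WT 2, and 3 without GH_WT 3.

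The EE by housing interaction, which tests whether the EE difference in SI mice exceeded that in GH mice, was positive for 40 of the 42 members, with a median of 0.48 beside 0.01 for all genes. No member or other gene passed in edgeR (0%). At an unadjusted p under 0.05, 18 members were higher and 0 lower, against 5.16% of all genes. Phldb1 had 1.12 (SE 0.23; unadjusted p = 8.21e-05, adjusted p = 0.373), Trf 0.93 (SE 0.21; unadjusted p = 0.000181, adjusted p = 0.392) and S1pr5 0.89 (SE 0.23; unadjusted p = 0.000857, adjusted p = 0.511). By class, 8 of 17 remaining members, 3 of 9 structural genes, 3 of 6 lipid genes, 3 of 5 junction genes and 1 of 5 transcription factors (Sox10) were among the 18. DESeq2 called 2 members (Trf and Phldb1) of 29 genes (0.143%), and limma-voom 0 (0%). The difference of differences in mean log2 CPM was 0.50, 0.60 without SI_EE 1 (24 members at p under 0.05) and 0.41 without the libraries in which longer genes read low (14 members). Leaving out 1 library at a time gave 0.38, without GH_EE 4, to 0.60. This contrast takes in the difference between SI_Con and GH_Con, so it is no separate evidence beside it.

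The WT by housing interaction was positive for 38 members, with a median of 0.28 beside 0.00. edgeR, DESeq2 and limma-voom called 0 members (0% of genes in each). Higher at an unadjusted p under 0.05 were 8 members, against 1.86% of all genes: Gjb1, Gjc3, Gpcpd1, Mag, Nipal4, Phldb1, Plekhh1 and Trf. Nipal4 had 0.85 (SE 0.22; unadjusted p = 0.00104, adjusted p = 1.0), and Trf 0.64 (SE 0.21; unadjusted p = 0.00510, adjusted p = 1.0). The difference of differences in mean log2 CPM was 0.30, and 0.17 without the libraries in which longer genes read low, when 5 members had p under 0.05. That count was also 5 without GH_Con 4 or without SI_WT 4, and 12 without SI_Con 1. Leaving out 1 library at a time gave a difference of differences from 0.23, without GH_WT 3, to 0.36, without GH_Con 1. Like the EE by housing interaction, this contrast takes in the difference between SI_Con and GH_Con, so it is no separate evidence beside it.

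Other genes of the lineage were read beside the members. Of 25 further myelin and oligodendrocyte genes that are no members, 24 were negative in SI_Con against GH_Con, with a median of -0.29. At an unadjusted p under 0.05, 12 were lower, against 3.57% of all genes. In 8 the groups did not overlap, against 2.61%, and edgeR called 0 (0% of all genes). Those with the smallest p were Tmem63a (-0.60, adjusted p = 0.506), Elovl7 (-0.57, adjusted p = 0.525), a fatty acid elongase, and Lpar1 (-0.51, adjusted p = 0.525), the lysophosphatidic acid receptor. All 7 precursor genes were negative, with a median of -0.33 and 2 at p under 0.05: Cacng4 (-0.49) and Ptprz1 (-0.47). Their summed level was 322 to 402 CPM in GH_Con and 217 to 332 CPM in SI_Con. Of 7 genes of newly formed oligodendrocytes, 6 were negative with a median of -0.15, and Enpp6 alone had p under 0.05 (-0.68, adjusted p = 0.548).

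Genes of other cells moved in part with the members. Of 7 astrocyte genes 6 were negative in SI_Con against GH_Con (median -0.30), and their sum ran from 4304 to 5661 CPM in GH_Con and from 3355 to 4996 CPM in SI_Con. All 6 microglia genes were negative (median -0.44; sums 257 to 439 and 196 to 303 CPM). The 5 pyramidal neuron genes had a median of 0.07, the 5 interneuron genes 0.20, and the 3 endothelial genes -0.02, while the 5 striatal genes were all negative with a median of -0.46 (sums 638 to 796 and 394 to 746 CPM). None of these genes passed edgeR's adjusted threshold, and the part of tissue make-up in the members' values was not tested. In SI_EE against SI_Con the further oligodendrocyte genes had a median of 0.18, with 19 of 25 positive, and the precursor genes 0.38, with 5 of 7 positive. Of the former, 6 were higher at p under 0.05, against 7.03% of all genes, and 1 lower, against 5.56%. There the 5 cerebellar genes had a median of 4.83, and they were read at 109 CPM or less in sum outside SI_EE 1. Of the astrocyte genes 6 of 7 were positive in SI_EE against SI_Con (median 0.15), with sums of 3721 to 5381 CPM in SI_EE. At p under 0.05, 2 were higher, against 7.03% of all genes. In the EE by housing interaction all 7 were positive (median 0.35, 4 at p under 0.05, against 5.16% of all genes higher at that p).

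Genes of the meninges, the membranes around the brain, were read at low levels. Their 5 genes were all positive in SI_EE against SI_Con (median 0.76, 1 at p under 0.05, against 7.03% of all genes higher at that p). Their sums were 27.0 to 77.6 CPM in SI_EE, highest in SI_EE 1, and 18.5 to 31.0 CPM in SI_Con. In SI_WT against SI_Con all 5 meningeal genes were negative, with a median of -1.18. Of these, 4 had p under 0.05, against 2.44% of all genes lower at that p, and 3 did not overlap, against 1.31%. In SI_WT against GH_WT all 5 were negative at p under 0.05 (median -1.50), against 3.61% of all genes. Their sums were 8.56 to 15.6 CPM in SI_WT and 18.2 to 45.8 CPM in GH_WT. All 6 microglia genes were positive in SI_WT against SI_Con (median 0.34, 0 at p under 0.05), with sums of 224 to 405 CPM in SI_WT. edgeR called none of these genes at an adjusted p under 0.05 (0 genes), and their part in the members' values was not tested.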

How the data were processed

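Total RNA of the medial prefrontal cortex was extracted with Trizol and RNeasy columns followed by Illumina library construction (labels' protocols). The authors deposited 1 table of whole-number read counts per gene for all 24 samples; that these counts were not normalized was judged from the values. The build is mm10 per the submitters' processing notes; the sources used here give no aligner, counter or strand setting. Symbols and positions came from GENCODE M21, which paired 52073 of 56750 entries (91.8%); entries without a symbol stayed in the tests. Members that overlap another gene (Evi2a with Nf1, Sirt2 with Nfkbib, Phldb1 with Treh, Plekhh1 with Pigh and others) are uncertain for that reason.

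Counts were fitted with edgeR 4.0.16 in R 4.3.3 (filterByExpr by group, TMM factors, robust quasi-likelihood test, all 24 libraries in 1 fit, no covariate), with Benjamini-Hochberg adjustment over 20354 genes and a threshold of 0.05. The 9 comparisons share groups. The script was tested on simulated data. CPM were computed with the TMM factors, and a prior count of 2 was added before taking log2. Totals were 33683587 to 51274917 counts per library, and the lowest count of a member was 91 (Nipal4), so counting error is part of the spread for the rarest members. DESeq2 1.42.0 and limma 3.58.1 (voom), other scalings, no filter, only the groups compared, replicate number or Xist-based sex as terms, and fits without named libraries were alternatives.

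The members, role classes and other gene lists were chosen with earlier results of these data known, so no p is given for the set as a whole. Members described library by library were the 2 of highest mean CPM in each class and the 3 of smallest p in each comparison; other members are given as values, those named for lack of overlap or a small p being chosen after these were seen. Promoters are from RefSeq.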

Additional observations from a re-analysis of the deposited data

Results flagged for a closer look

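For the 20 members described library by library and the set and class means, each group of 4 libraries was checked for a lowest or highest library set far apart from the other 3. This held in 10 of 156 groups checked, and chance gives about 1 in 20. SI_WT 4, a library in which longer genes read low, was apart in 4 of the 10: it was high in Mbp (814 CPM, the others 490 to 532) and Gjb1 (21.7 CPM, the others 15.5 to 16.4), and low in Enpp2 (182 CPM, the others 210.4 to 214) and Myrf (51.3 CPM, the others 60.3 to 62.0). GH_WT 3 was the low library in 3: Gjc3 (59.6 CPM, the others 75.3 to 76.7), Mag (127 CPM, the others 169 to 176) and Nipal4 (4.20 CPM, the others 5.55 to 5.58). SI_WT 1 was the high library for Gpcpd1 (139 CPM, the others 79.9 to 88.9). SI_EE 1, which held cerebellar transcripts, was low for Cldn11 (121 CPM, the others 205 to 214). SI_EE 2 was low for Sirt2 (82.4 CPM, the others 88.9 to 90.1).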

How the results depend on the processing

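The differences in mean log2 CPM moved by less than the spread between libraries under all 174 alternative values run for them. That spread is the pooled SD of single libraries within groups, a wide yardstick for a difference of means. Among these was the added one without Qdpr, Opalin, Evi2a and Enpp2, which was chosen after seeing the data. That spread was larger than the difference itself in GH_WT against GH_Con (0.15 beside -0.14) and SI_EE against GH_EE (0.24 beside 0.06). A move smaller than the spread could there change the sign, and in SI_EE against GH_EE it did (-0.05 without GH_EE 4). The spread was not much smaller than the difference in SI_WT against GH_WT (0.13 beside -0.14) and SI_WT against SI_Con (0.13 beside 0.16). The same held in GH_EE against GH_Con (0.19 beside -0.23) and SI_EE against SI_Con (0.20 beside 0.26). In these 4 a move within the spread could take away most of the difference. Of the counts of members past an adjusted p of 0.05, which were 0 in every comparison with edgeR, 169 alternative values stayed at 0 and 5 did not. DESeq2 gave 7 members in SI_Con against GH_Con, 5 in SI_EE against SI_Con, 1 in SI_WT against SI_Con and 2 in the EE by housing interaction; the cause was not tested. In SI_EE against SI_Con, leaving out 1 library at a time gave 0 to 3, the 3 without SI_EE 2. Of single members, Enpp2 in SI_Con against GH_Con ran from -0.20 (without SI_Con 4) to 0.47 (without SI_Con 2), and 12 values passed the threshold under DESeq2 or without SI_EE 2. With the replicate number as a block, no call changed: SI_Con against GH_Con kept 0 members past the adjusted threshold, 24 at an unadjusted p under 0.05, and a difference of -0.44. Deviations of same-numbered libraries from their group means correlated at -0.28 to 0.18 across comparisons. Differently numbered libraries were not set beside them, so whether the numbers pair libraries cannot be told from this. Counts of members at an unadjusted p under 0.05 moved by 1.5 times or more without the libraries in which longer genes read low in SI_Con against GH_Con (26 to 17), SI_EE against SI_Con (13 to 7), SI_WT against SI_Con (4 to 2), SI_WT against GH_WT (2 to 0) and the WT by housing interaction (8 to 5). Without SI_EE 1, GH_WT 2 and GH_WT 4 they did so in GH_WT against GH_Con (1 to 3), SI_EE against GH_EE (1 to 5) and SI_WT against GH_WT (2 to 0). With all libraries they moved as much in GH_EE against GH_Con (9, and 14 when only the groups compared were fitted), GH_WT against GH_Con (1, and 6 with only those groups, 2 with limma-voom), SI_EE against GH_EE (1, and 2 with only those groups or with no scaling factors) and SI_WT against GH_WT (2, and 0 under limma-voom or the block, 3 with only those groups, 1 with sex as a term). The lowest count behind any member value was 91 reads, so every member was detected at this depth.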

Other observations

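Qdpr, which recycles the cofactor of aromatic amino acid hydroxylases, split into 2 levels that cut across the groups. In 11 libraries it read 64.9 to 105 CPM and in 13 libraries 150.4 to 259 CPM, with none between. The lower level held 1 of 4 libraries in GH_Con, 3 in SI_Con, 3 in GH_EE, 3 in SI_EE, 0 in GH_WT and 1 in SI_WT. Opalin was at 5.80 to 9.05 CPM in SI_Con 3, SI_Con 4, GH_EE 4 and SI_EE 1, all 4 of them in the lower Qdpr set, and at 14.0 CPM or more elsewhere. Evi2a was under 9 CPM in GH_Con 1, SI_Con 4, GH_EE 4, SI_EE 1 and SI_WT 1 and at 35.3 CPM in GH_Con 2. These levels were picked out after the values were seen and were given no test.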
